A study of Mus musculus with 5 samples.

Results

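The genes described here encode the chains of collagens, laminins and integrins, taken by their names from the annotation of Nr1d1 ChIP-seq peaks in mouse Th1 cells. A gene counted when its symbol was Col with a chain number, Lama, Lamb or Lamc with a number, or began with Itga or Itgb, and when the authors' annotation assigned a peak of a deposited list to it. This gave 39 genes of the 12195 that were nearest to any peak: 25 collagen genes, 5 laminin genes and 9 genes with an Itg name. Of the latter, 7 encode integrin subunits, while Itgb3bp encodes a centromere protein and Itgbl1 a secreted protein with integrin-like repeats. In the RefSeq annotation 86 genes have such names, 82 of them collagen, laminin or integrin genes and 4 others with an Itg name (Itgb3bp, Itgbl1, Itgb1bp1 and Itgb1bp2). The 47 without an assigned peak include Itgb1bp1 and Itgb1bp2. Where the text gives values for the families as a whole, all 86 names were counted.

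The peaks came from 3 Nr1d1 ChIP libraries, 1 IgG mock pull-down and 1 input DNA library, all of the same kind of cell. Naive CD4 T cells were taken from the lymphoid organs of wild-type C57BL/6 mice aged 4 to 6 weeks. They were activated in culture with antibodies against CD3 and CD28 and driven to the Th1 state with the cytokines IFNγ and IL-12 while IL-4 was blocked, for 3 to 4 days. Crosslinking used 1% formaldehyde for 30 minutes. How many mice were used, or whether they were pooled, is not stated. Peaks were deposited per antibody and not per library. By the names of the lists, each antibody was set against the input, and they hold 19586 ChIP peaks and 17111 IgG peaks. Of the ChIP peaks, 14471 overlapped no IgG peak and are called ChIP-specific here, and the others are called ChIP peaks over IgG. The lists give no read count or height. The depth of a peak is thus unknown, no replicate spread can be given, and no test was made. Intervals below cover the counting of peaks or genes alone. Expression was not measured, so the Th1 label could not be checked against markers: Cd4, Cd3e and Tbx21 were nearest to no peak, and Ifng to 1 ChIP-specific peak.

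Collagens are secreted triple helices that form fibrils, sheets and filaments of the extracellular matrix. Laminins are cross-shaped trimers of an alpha, a beta and a gamma chain that build basement membranes together with type IV collagen. Integrins are pairs of an alpha and a beta subunit that hold cells to these proteins or to other cells. T cells use integrins of the beta 1, beta 2 and beta 7 classes to stick to vessel walls, to antigen-presenting cells and to matrix, whereas most collagen and laminin genes are best known from fibroblasts, epithelia, muscle and endothelium. Nr1d1 (REV-ERBα) is a nuclear receptor that represses transcription at sites built around the hexamer AGGTCA.

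Of the 39 genes, 30 had a ChIP-specific peak (76.9%, Wilson 95% interval 61.7 to 87.4) and 24 an IgG peak (61.5%, 45.9 to 75.1). Over all 12195 genes with a peak, the shares were 66.4% for ChIP-specific and 67.9% for IgG peaks, and both lie within these intervals. Both kinds of peak were found at 15 genes, a ChIP-specific and no IgG peak at 15, and an IgG but no ChIP-specific peak at 9. These are 38.5%, 38.5% and 23.1% of the 39 genes, beside 34.4%, 32.0% and 33.6% of all genes with a peak. The 15 genes with ChIP-specific and without IgG peaks included the fibrillar collagen genes Col24a1, Col1a1 and Col5a1, the laminin genes Lama4 and Lamb1, and the integrin genes Itga6, Itgal and Itgb5. The 9 genes with an assigned IgG but no assigned ChIP-specific peak were Col1a2, Col4a1, Col4a2, Col6a6, Col8a2, Lama3, Itga11, Itgav and Itgbl1. Of these, Col4a2, Col6a6, Lama3, Itga11 and Itgbl1 did have a ChIP peak, which lay over an IgG peak. This split goes by the assigned gene and not by the gene body. The bodies of Lama3 and Itgbl1 held 1 and 2 ChIP-specific peaks assigned to other genes. Among the 15 genes without an assigned IgG peak, the bodies of Col4a6 and Col6a4 held 4 and 1 IgG peaks assigned to other genes. A ChIP peak of either kind was assigned to 35 of the 39 genes.

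In peaks, the 39 genes had 68 of the ChIP list, of which 54 were ChIP-specific and 14 lay over an IgG peak, and 46 of the IgG list. The share of their ChIP peaks that overlapped an IgG peak was 20.6% (12.7 to 31.6), beside 26.1% of all ChIP peaks. More than 1 ChIP-specific peak was assigned to 16 of the 30 genes (53.3%), beside 35.8% of all 8100 genes with such a peak, while the mean per gene was 1.80 and 1.79. Col19a1 and Col24a1 had the most of the 30 genes, 4 each, and the most at any gene was 18. The strongest ChIP-specific peak assigned to the 39 genes, by FDR and then length, lay in an intron of Itga9 (chromosome 9, 118674851 to 118675199, mm10). It was 350 bp long, its FDR (the expected share of false peaks) was given as 0, and it was number 66 of the whole ChIP-specific list. It was the 1 ChIP-specific peak assigned to these genes with an FDR of 0, and the next, in an intron of Lamb1, had an FDR of 0.00297 (number 318). The median FDR of the 54 peaks was 0.0131 and their median length 175 bp, beside 0.0146 and 200 bp over all ChIP-specific peaks.

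**Figure D1:**
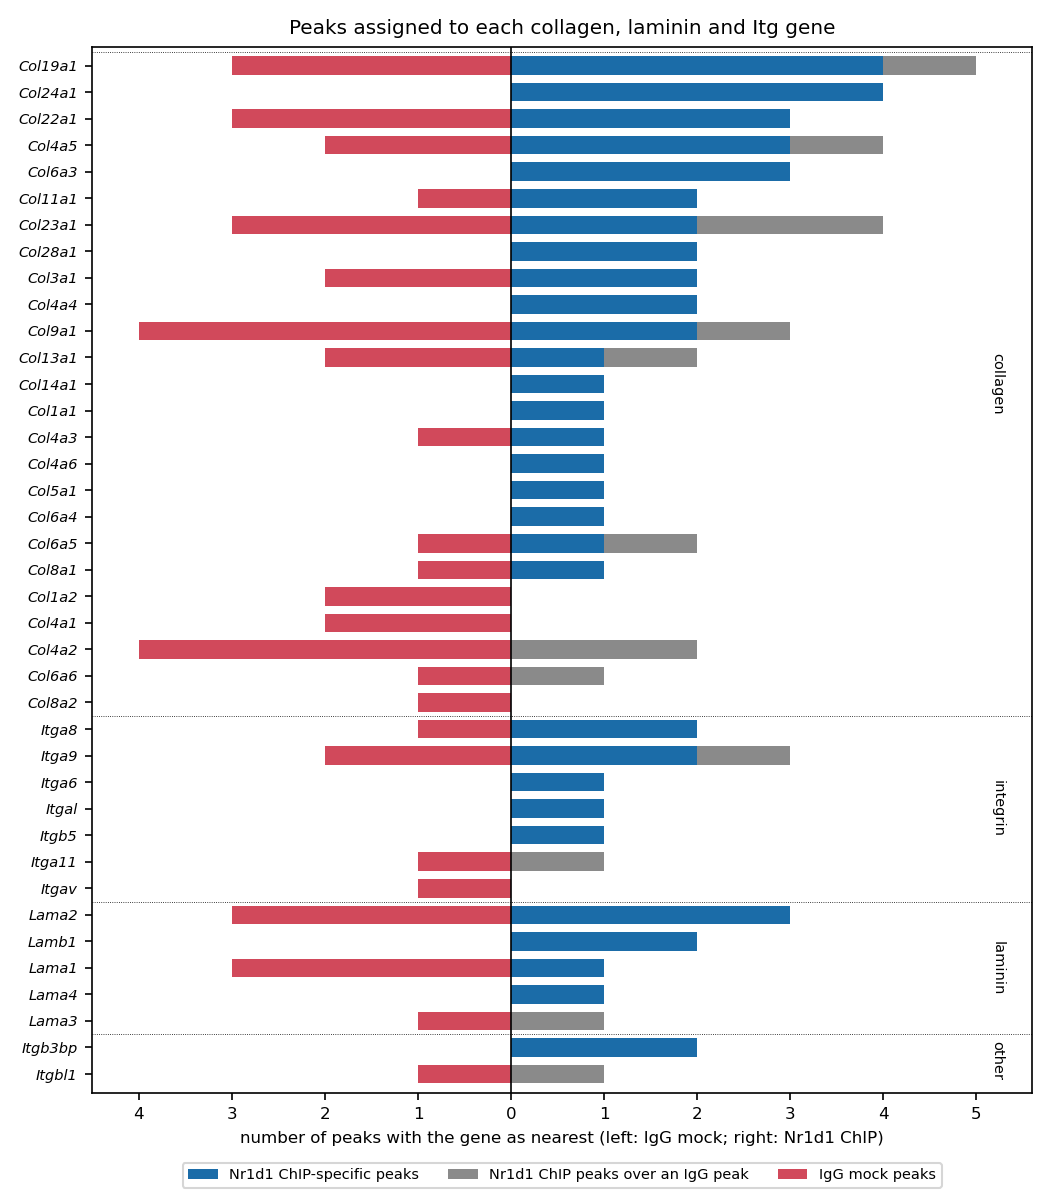
Number of peaks (x axis) assigned to each of the 39 genes (y axis), grouped by family. Bars to the right count Nr1d1 ChIP peaks, ChIP-specific in blue and over an IgG peak in grey, and bars to the left count IgG mock peaks in red. Col19a1 and Col24a1 have 4 ChIP-specific peaks each, Col24a1 without an IgG peak and Col19a1 with 3.

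Of the 54 ChIP-specific peaks, 3 lay within 1 kb of the assigned transcription start site (TSS; 5.56%, 1.91 to 15.1), beside 9.5% of all ChIP-specific peaks. Of the 46 IgG peaks, 11 did (23.9%, 13.9 to 37.9), beside 9.09% of all IgG peaks. Of the 14 ChIP peaks over IgG, 5 lay this close (35.7%, 16.3 to 61.2), beside 14.7% of all ChIP peaks over IgG. Each of these 5 was matched by 1 of the 11 IgG peaks. The promoter class of the authors' annotation held 2 of the 54 ChIP-specific peaks (3.70%, 1.02 to 12.5), beside 5.52% of all ChIP-specific peaks. Both intervals for ChIP-specific peaks hold the share over the whole list.

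The 3 ChIP-specific peaks near a TSS lay at Itga6, Col13a1 and Col1a1. Itga6 encodes the alpha 6 subunit, which makes laminin receptors with beta 1 or beta 4. Its promoter peak, 67 bp before the TSS, was on chromosome 2 (71786776 to 71786949, 175 bp, FDR 0.00956), and the nearest IgG peak was 498602 bp away. Col13a1, a transmembrane collagen of the neuromuscular junction, had a promoter peak 448 bp past its TSS, at 61978576 to 61978674 on chromosome 10 (100 bp, FDR 0.0399). An IgG peak lay 402 bp from that one, 29 bp upstream of the TSS of another Col13a1 transcript. Col1a1, a chain of the main collagen of bone and skin, had an intron peak at 94945576 to 94945699 on chromosome 11 (125 bp, FDR 0.0389). It lay 269 bp past the TSS of a transcript that starts well inside the gene, whose RefSeq bounds are 94936224 to 94953042. The IgG peak nearest to it was 229552 bp away. The Col13a1 and Col1a1 peaks were among the shorter and weaker of the list, at numbers 13405 and 13285 of 14471.

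ChIP and IgG peaks overlapped within 1 kb of a TSS at Col4a2, Col23a1, Itga9, Itgbl1 and, in an intron, Col13a1. The Col13a1 overlap was not at the start of the gene, which is on the minus strand with RefSeq bounds of 61838234 to 61979206. Its ChIP peak, at 61865776 to 61865974, was near the TSS of a transcript that starts far inside the gene. Col4a1 and Col4a2, the chains of the main type IV collagen of basement membranes, lie head to head and share a promoter region. There a ChIP peak of 225 bp (chromosome 8, 11312526 to 11312749, FDR 0.00872) and an IgG peak of 225 bp (11312551 to 11312774, FDR 0.000934) had 199 bp in common, 168 and 143 bp upstream of the Col4a2 TSS. Over an exon at the start of Col23a1, a transmembrane collagen, the ChIP peak was 250 bp long with an FDR printed as 0, and the IgG peak of 125 bp lay wholly inside it. In the first part of Itga9, a receptor subunit for tenascin and VCAM-1, the ChIP and IgG peaks were the same interval (chromosome 9, 118606851 to 118606999). At Itgbl1 the IgG peak was the longer and had the lower FDR, 275 bp with an FDR printed as 0, beside 150 bp and 0.0196 for the ChIP peak. Each list was set against the input on its own, so FDR values do not rank peaks across the lists. An FDR printed as 0 was given for 17.1% of all IgG and 9.0% of all ChIP peaks.

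Promoter windows that ChIP or IgG peaks of these genes overlapped differed in base composition, taken over the whole window. The RefSeq promoter table (GRCm38.p6, the same assembly as mm10) holds a window from 250 bases before to 50 after the start for 30 of the 39 genes. Itga6 and Col1a1 are not among them. No ChIP-specific peak overlapped one of these windows, a ChIP peak over IgG overlapped 1, and IgG peaks overlapped 4. The 3 windows shown are those with the most bases under a peak, and capitals mark these bases, for Col4a2 under the ChIP peak and for Col13a1 and Col3a1 under the IgG peak. The Col4a2 window is chr8:11312555-11312854 on the plus strand, the Col13a1 window chr10:61979059-61979358 on the minus strand and the Col3a1 window chr1:45311288-45311587 on the plus strand.
Col4a2: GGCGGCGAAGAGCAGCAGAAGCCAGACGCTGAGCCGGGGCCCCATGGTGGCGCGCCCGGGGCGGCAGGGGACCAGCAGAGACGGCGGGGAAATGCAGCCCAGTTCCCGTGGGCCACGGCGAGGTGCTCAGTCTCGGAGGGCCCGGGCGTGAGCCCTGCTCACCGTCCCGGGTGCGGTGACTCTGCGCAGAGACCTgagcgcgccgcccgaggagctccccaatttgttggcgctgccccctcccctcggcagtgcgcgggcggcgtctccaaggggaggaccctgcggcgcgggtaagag
Col13a1: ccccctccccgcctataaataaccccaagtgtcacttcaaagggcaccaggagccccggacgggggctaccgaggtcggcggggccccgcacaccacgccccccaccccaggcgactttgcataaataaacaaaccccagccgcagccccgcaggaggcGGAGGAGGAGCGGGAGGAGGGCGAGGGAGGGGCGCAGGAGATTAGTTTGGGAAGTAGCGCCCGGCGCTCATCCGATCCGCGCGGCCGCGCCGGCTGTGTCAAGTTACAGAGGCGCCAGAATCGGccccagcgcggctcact
Col3a1: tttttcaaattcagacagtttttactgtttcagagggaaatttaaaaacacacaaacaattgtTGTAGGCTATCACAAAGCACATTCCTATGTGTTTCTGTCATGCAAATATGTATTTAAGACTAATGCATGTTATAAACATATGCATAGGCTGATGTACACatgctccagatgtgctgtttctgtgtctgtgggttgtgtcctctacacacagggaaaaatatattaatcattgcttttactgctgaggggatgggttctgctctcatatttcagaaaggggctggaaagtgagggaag

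The Col4a2 window was 73.7% G or C and the Col13a1 window 68.0%, whereas that of Col3a1, a fibrillar collagen chain of vessels and skin, was 37.7%. The median over all 32851 windows was 52.7%, and over the 31 windows of the 39 genes 60.0%. The peak in the Col3a1 window was an IgG peak of 100 bp with an FDR of 0.0277, and no ChIP peak lay there. In the Col4a2 window 195 bases were under the ChIP peak, in the Col13a1 window 124 under the IgG peak, and in the Col3a1 window 99. None of these 3 windows held AGGTCA on either strand.

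AGGTCA was present on either strand in 6 of the 31 windows of these genes (19.4%, 9.19 to 36.3), beside 16.3% of all promoter windows. With the family names without an assigned peak included, it was present in 9 of 68 windows (13.2%, 7.12 to 23.3). The 6 windows were those of Col9a1, Col4a4, Col11a1, Col24a1, Col6a5 and Col23a1. Each of these genes had a ChIP-specific peak outside the window, and 30 of the 39 genes had a ChIP-specific peak. In none of the 6 windows did a ChIP or IgG peak lie over the hexamer. Searches for the RORE, which has the hexamer after an A/T-rich flank, and for the RevDR2, a direct repeat of AGGTCA with 2 bases between the copies, were made on both strands too. A RevDR2 match holds the hexamer, and a RORE match holds its last 5 bases. They matched 0 of the 31 windows, beside 0.384% and 0.00913% of all windows. The hexamer is shown with its flanks for the 3 genes where it stood in the direction of transcription, in capitals: Col24a1 (chr3:145292322-145292351), Col23a1 (chr11:51289693-51289722) and Col4a4 (chr1:82586922-82586951).
Col24a1: aggggtggcaaaAGGTCActtgagagctca
Col23a1: caagtgtcagaaAGGTCAatctacaagctt
Col4a4: cctagcgggtgcAGGTCAacgtgaggaatt

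The sequence under the ChIP-specific peaks themselves was not analysed here.

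Most ChIP-specific peaks of these genes were intronic. Introns held 36 of the 54 (66.7%, 53.4 to 77.8), beside 30.8% of all ChIP-specific peaks, and intergenic regions held 14 (25.9%, 16.1 to 38.9), beside 57.2%. Of the remaining 4 peaks, the promoter peaks of Itga6 and Col13a1 have been given, 1 lay over an exon of Itga8 and 1 at a transcription termination site assigned to Col9a1. Of the 46 IgG peaks of these genes, 29 were in introns (63.0%), beside 29.0% of all IgG peaks, and 7 were intergenic (15.2%), beside 59.7%. The median distance to the TSS was 16655 bp for ChIP-specific and 14120.5 bp for IgG peaks, beside 30846 and 34550 bp in the whole lists. By the RefSeq gene bounds, 40 of the 54 ChIP-specific peaks lay inside the gene they were assigned to. The other 14 lay from 1753 to 150680 bp outside it. Distances refer to the nearest transcript of a gene, which may start inside it: 27 ChIP-specific peaks were upstream of their assigned TSS, and 16 of these were nevertheless in the gene body.

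**Figure D2:**
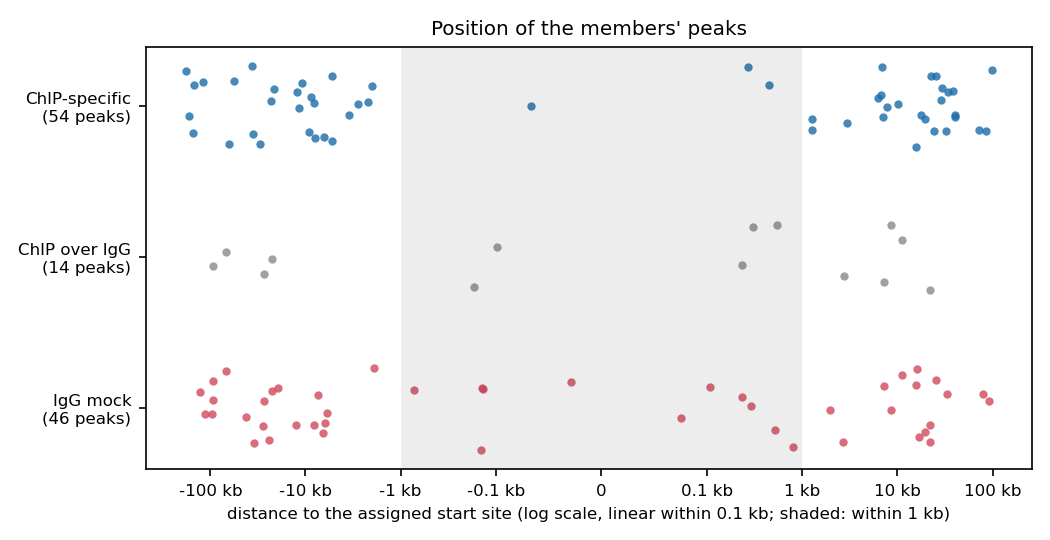
Signed distance from each peak to its assigned start site (x axis, log scale outside 0.1 kb) for the 54 ChIP-specific peaks, the 14 ChIP peaks over IgG and the 46 IgG mock peaks of the 39 genes (rows). Points are peaks and are spread vertically for visibility. In the shaded range of 1 kb there are 3 ChIP-specific, 5 ChIP over IgG and 11 IgG peaks.

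The ChIP-specific peaks were also set beside the nearest IgG peak. The median gap to the nearest IgG peak was 54002 bp, beside 36677 bp over all ChIP-specific peaks, and 16 of the 54 gaps exceeded 100 kb (29.6%, beside 22.4%). Within 1 kb of an IgG peak there were 2 (3.70%, beside 2.93%), the Col13a1 promoter peak and a Col19a1 intron peak of 150 bp (chromosome 1, 24430326 to 24430474, FDR 0.0496), which lay 177 bp from an IgG peak. That Col19a1 peak was among the weakest of the list, and a ChIP peak over IgG lay beside it.

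The counts by group, here and below, stand beside the 26.6% of protein-coding genes that were nearest to any peak. Over all 44 collagen genes the share was 56.8%, and over the 11 laminin genes 45.5%. The groups differ in gene length, as given further below. Among fibrillar collagens, which form the banded fibres of connective tissue, 6 of 11 genes had a peak and 5 of these had ChIP-specific ones. Col24a1, a minor fibrillar collagen of bone and cornea, had 4 ChIP-specific peaks and 0 IgG peaks. Of these, 3 were intronic, the strongest at 145509951 to 145510149 on chromosome 3 (FDR 0.00597), and 1 was 30160 bp upstream of the TSS. The nearest IgG peak to any of the 4 was 98727 bp away. Col11a1, a chain of cartilage fibrils, had 2 ChIP-specific peaks, 150853 and 148840 bp before the TSS, with FDR values of 0.00393 and 0.0452. Col3a1 had an intronic ChIP-specific peak 2928 bp downstream of its TSS and another 6401 bp upstream, on either side of the IgG promoter peak shown above. Col5a1 had 1 intergenic peak 63250 bp upstream. Col1a2, the partner chain of Col1a1, had 2 IgG peaks and no ChIP peak. Of the 10 ChIP peaks of fibrillar collagen genes 0 overlapped an IgG peak, beside 26.1% of all ChIP peaks.

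Network collagens build the sheets of basement membranes (type IV) and related lattices (types VIII and X), and 8 of these 9 genes were nearest to a peak. The 6 type IV genes lie in 3 pairs with their starts side by side, and the pairs differed in which list their peaks came from. The pair Col4a1 and Col4a2 (chromosome 8, 11198423 to 11449287) held 6 IgG peaks, 2 ChIP peaks over IgG and 0 ChIP-specific peaks. Besides the shared promoter peaks, a ChIP peak (FDR 0.0103) and an IgG peak (FDR given as 0) overlapped in an intron, 22493 bp before the Col4a2 TSS and inside Col4a1. The pair Col4a4 and Col4a3 (chromosome 1, 82448419 to 82722059), chains of the kidney filter's membrane, held 5 ChIP-specific and 2 IgG peaks, with no overlap between the lists. Of the 5, 3 were assigned to Col4a4 or Col4a3 and the others to other genes. The pair Col4a6 and Col4a5 on X, of which Col4a5 completes the same membrane, held 8 ChIP-specific peaks, 2 ChIP peaks over IgG and 6 IgG peaks over 523.8 kb. Of the 8, 4 were assigned to the pair itself. Col4a5 itself had 3 ChIP-specific peaks with FDR values from 0.0149 to 0.0202, and its strongest ChIP peak, with an FDR printed as 0, lay over an IgG peak 11050 bp from a TSS. Col8a1, a chain of vascular and corneal membranes, had 1 ChIP-specific peak 10037 bp from its TSS (FDR 0.0244) and 1 IgG peak 5552 bp away (FDR 0.0220), and Col8a2 had 1 IgG peak.

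**Figure D3:**
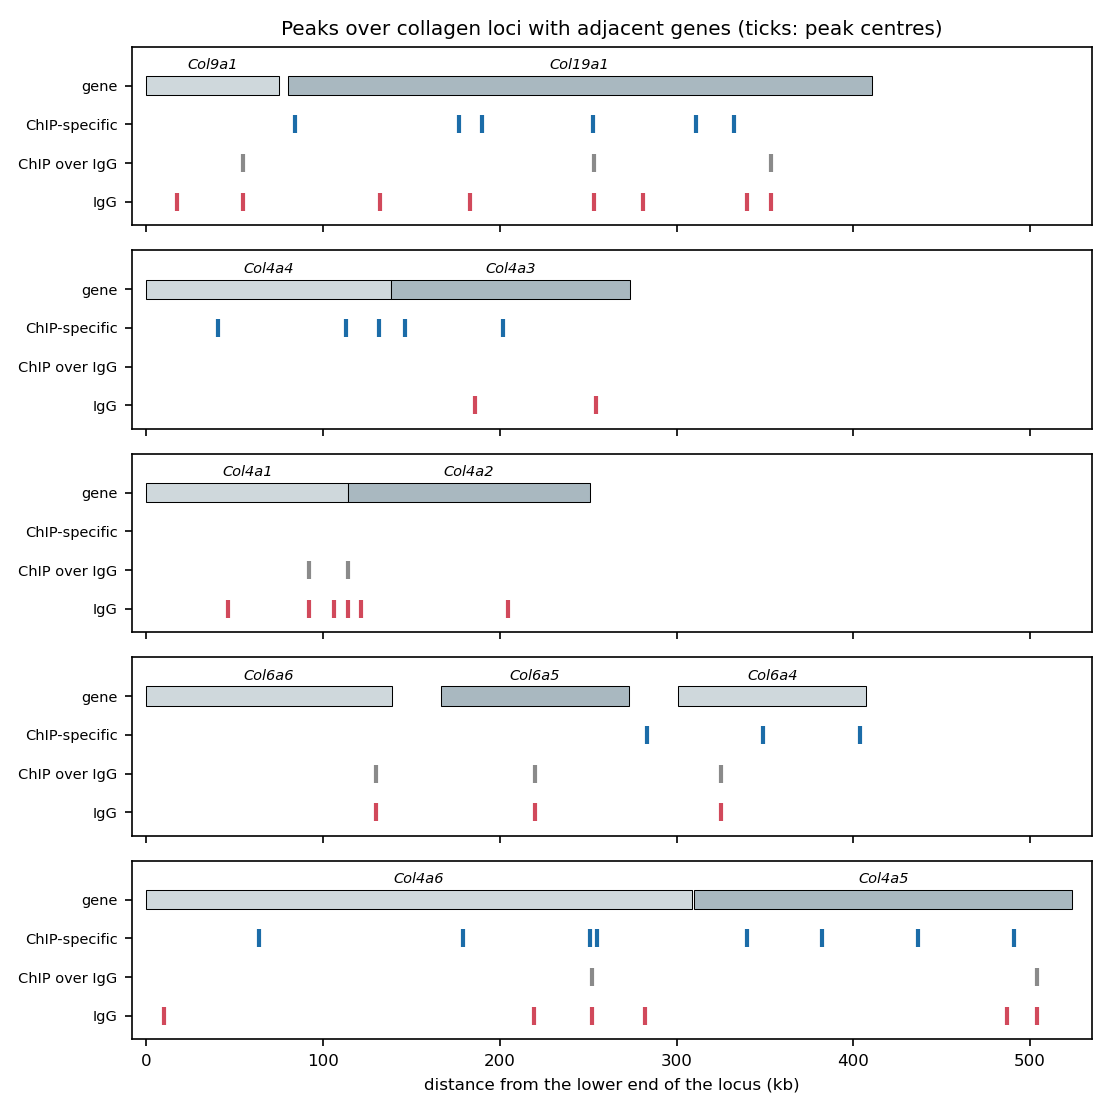
Centres of peaks (ticks) over 5 loci where collagen genes lie next to each other, as distance in kb from the lower end of the locus (x axis). Rows give the genes as boxes, ChIP-specific peaks in blue, ChIP peaks over IgG in grey and IgG mock peaks in red. Col4a4 with Col4a3 holds 5 ChIP-specific peaks, and Col4a1 with Col4a2 holds 0 beside 6 IgG peaks.

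FACIT collagens are short helical chains that sit on the surface of fibrils, and 4 of 9 of their genes were nearest to a peak. Col19a1, a collagen of basement membrane zones in muscle and brain, had 4 ChIP-specific peaks, all intronic, from 22345 to 98095 bp from a TSS. The strongest of them (chromosome 1, 24354501 to 24354799, 300 bp, FDR 0.00416) lay 5977 bp from an IgG peak. The gene also had 3 IgG peaks, 1 of which overlapped a ChIP peak. Its neighbour Col9a1, a cartilage collagen, had 2 ChIP-specific peaks, of which the stronger (FDR 0.0131) lay at a termination site 32470 bp past the TSS and inside Col19a1 as RefSeq bounds it, and 4 IgG peaks, of which 2 were at promoters. Col22a1, a collagen of tissue junctions, had 3 ChIP-specific and 3 IgG peaks with no overlap, and 2 of the 3 ChIP-specific ones were annotated as intergenic upstream of the TSS. Both were inside the gene by the RefSeq bounds, the stronger at 72070501 to 72070799 on chromosome 15 (FDR 0.00880). Col14a1 had 1 intronic peak (FDR 0.00992), and Col12a1, Col16a1, Col20a1, Col9a2 and Col9a3 had no ChIP-specific or IgG peak assigned or in the gene body.

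Transmembrane collagens are anchored in the cell surface, and Col23a1 and Col13a1 of their 4 genes had peaks of every kind. Besides the overlap at its start, Col23a1 had 2 intronic ChIP-specific peaks, 325 bp with an FDR of 0.00503 (chromosome 11, 51517826 to 51518149) and 400 bp with an FDR of 0.00597. The latter was the longest ChIP-specific peak of these genes. Col25a1, at 419.5 kb the longest collagen gene of the set, had no assigned peak and no ChIP-specific or IgG peak in its body.

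Of the beaded filament, anchoring and multiplexin collagens, 5 of 11 genes were nearest to a peak. Col6a3, a chain of the beaded filaments around cells, had 3 ChIP-specific peaks and no IgG peak. Of these, 2 lay in introns close to each other, 7109 and 6221 bp past a TSS, with FDR values of 0.0261 and 0.0131, and the third was intergenic. Col28a1 had 2 intronic ChIP-specific peaks and no IgG peak. The cluster of Col6a6, Col6a5 and Col6a4 on chromosome 9 held 3 ChIP-specific peaks, 3 ChIP peaks over IgG and 3 IgG peaks. The Col6a6 peaks were strong in both lists, 375 bp for the ChIP and 300 bp for the IgG mock, both with an FDR printed as 0.

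Among laminins, 5 of 11 genes were nearest to a peak, 4 alpha chains and Lamb1, while 0 of the 3 gamma chains were. Lamb1, the beta chain of most basement membranes, had 2 intronic ChIP-specific peaks and no IgG peak. They lay 1262 bp (chromosome 12, 31266576 to 31266749, FDR 0.00984) and 19600 bp (31297626 to 31297924, FDR 0.00297) downstream of a TSS, and the nearest IgG peak was 49902 bp from the first. Lama2, the alpha chain of muscle and nerve membranes and at 635.9 kb the longest gene of the set, had 3 ChIP-specific and 3 IgG peaks assigned. Its body held 5 ChIP-specific peaks, 3 ChIP peaks over IgG and 5 IgG peaks, several of which were assigned to other genes. Lama4, a chain of vessel walls, had 1 intronic ChIP-specific peak (FDR 0.00849) and no IgG peak. Lama1, the embryonic alpha chain, went the other way, with 1 intergenic ChIP-specific peak 2003 bp before its TSS (FDR 0.0243) and 3 intronic IgG peaks, the strongest 350 bp with an FDR printed as 0. At Lama3, a chain of skin membranes, the ChIP peak and the IgG peak overlapped in an intron 7293 bp from a TSS.

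Of the integrin genes, 7 of 27 were nearest to a peak (25.9%), beside 26.6% of protein-coding genes. ChIP-specific peaks were assigned to Itga6, Itga8, Itga9, Itgal and Itgb5. Itga8, a receptor subunit of kidney development, had a peak over an exon (chromosome 2, 12140426 to 12140574, 150 bp, FDR 0.0131), 7948 bp upstream of its assigned TSS and in the gene body, and another in an intron (FDR 0.00837). It also had an IgG peak with a lower FDR than either (0.00200), 103302 bp from the nearest ChIP peak. Itga9 had, besides its strong intron peak, an intergenic one 8115 bp upstream (FDR 0.00880). Itgb5, which forms a vitronectin receptor with alpha V, had 1 intronic peak 24285 bp past the TSS, at 33853826 to 33854099 on chromosome 16 (FDR 0.00887) and 496527 bp from the nearest IgG peak. Itga11, a collagen receptor subunit of fibroblasts, had the same interval of 375 bp in both lists, 69164 bp upstream and with an FDR printed as 0 in each.

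For the 12 integrin subunits known from T cells and other leukocytes, 2 had a ChIP-specific peak, 1 had an IgG peak and 9 had neither. The share with a ChIP-specific peak, 16.7%, lies near the 17.5% of protein-coding genes. Itgal, the alpha chain of LFA-1 through which T cells bind ICAM-1, had an intergenic ChIP-specific peak 3498 bp before its TSS, at 127292676 to 127292849 on chromosome 7 (175 bp, FDR 0.0269), and the nearest IgG peak was 1011127 bp away. Itga6 was the other gene with a ChIP-specific peak. Itgav, the alpha chain of vitronectin receptors, had an IgG peak over an exon 107 bp past its TSS, at 83724601 to 83724724 on chromosome 2 (FDR 0.0248), and no ChIP peak. Itgae, the alpha chain of the E-cadherin receptor of tissue T cells, had no assigned peak, although a ChIP-specific peak lay in its gene body (chromosome 11, 73120901 to 73121074, FDR 0.0167), assigned to the gene Gsg2. The shared beta chains had none: the nearest ChIP-specific peak was 207397 bp from Itgb1, 49193 bp from Itgb2 and 46146 bp from Itgb7. Itga1, Itga2, Itga4, Itgam and Itgax had no assigned peak or body peak, and their nearest ChIP-specific peaks were between 373112 and 616427 bp away.

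Without the 2 names that encode neither a matrix chain nor an integrin, the counts were 29 genes for ChIP-specific and 23 for IgG peaks. Itgb3bp had 2 ChIP-specific peaks annotated as intronic (FDR 0.00880 and 0.0294) and no IgG peak, and the second lay 103361 bp outside the gene's RefSeq bounds. Itgbl1 had the overlapping promoter peaks described above.

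These genes are long, and long genes held more peaks of any kind. The median length was 136.5 kb for the 39 genes, 45.1 kb for the 47 of the same families without an assigned peak and 17.2 kb for all 21887 protein-coding genes. By group, with or without a peak, it was 45.1 kb for fibrillar, 75.15 kb for FACIT and 135.1 kb for network collagens. For transmembrane collagens it was 217.6 kb, and for the beaded filament, anchoring and multiplexin group 106.4 kb. Laminin genes had a median of 64.5 kb and integrin genes 55.9 kb. Of the 86 genes, 30 had an assigned ChIP-specific peak (34.9%, 25.7 to 45.4), beside 17.5% of protein-coding genes, and 24 an assigned IgG peak (27.9%, 19.5 to 38.2), beside 17%. Inside gene bodies, 31 of the 86 had a ChIP-specific peak (36.0%), beside 13.7%, and 22 had an IgG peak (25.6%), beside 13.1%. Genes of like length were then compared. Of 12 family genes over 200 kb, 11 had a ChIP-specific peak in the body (91.7%), beside 72.7% of 990 protein-coding genes of that length. Between 100 and 200 kb it was 13 of 26 (50%), beside 40.7%, and between 50 and 100 kb 5 of 15 (33.3%), beside 22.3%. Between 25 and 50 kb it was 1 of 18 (5.56%), beside 12.3%, and up to 25 kb 1 of 15 (6.67%), beside 5.12%. These shares rest on few family genes, no interval was made for them, and the differences were not tested. An assigned IgG peak was found at 66.7% of family genes over 200 kb, beside 63.1%. In the next 2 classes this was 42.3%, beside 34.7%, and 13.3%, beside 22.4%. Between 25 and 50 kb it was 16.7%, beside 15.7%, and up to 25 kb 0%, beside 11.1%. These IgG shares go by assignment, unlike the gene-body shares of ChIP-specific peaks above. By assignment, a ChIP-specific peak was found at 75% of family genes over 200 kb, beside 61.5%. From 100 to 200 kb this was 50%, beside 36.5%, and from 50 to 100 kb 33.3%, beside 24.2%. From 25 to 50 kb it was 11.1%, beside 16.6%, and up to 25 kb 6.67%, beside 11.1%.

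Per Mb of gene length, the 86 genes held 6.62 ChIP-specific peaks (exact Poisson 95% interval 5.08 to 8.49) and 5.45 IgG peaks (4.06 to 7.16). All protein-coding genes held 5.42 and 6.05, and both values lie within these intervals. By family, collagen genes held 8.08 ChIP-specific peaks per Mb (5.87 to 10.9) and 6.80 IgG peaks (4.79 to 9.37). The first interval lies above the 5.42 of all protein-coding genes and the second holds their 6.05. Protein-coding genes over 200 kb held 6.69 per Mb of the former and 8.28 of the latter, beside 8.73 and 7.45 for the 12 family genes of that length. The collagen intervals hold the 6.69 and the 8.28. Laminin genes held 5.74 and 6.37, and integrin genes 3.11 (1.14 to 6.77) and 1.55 (0.321 to 4.54). Of all the groups counted, network collagens were the densest in both lists. They held 11.5 ChIP-specific (6.31 to 19.4) and 13.2 IgG peaks per Mb (7.54 to 21.4). Fibrillar collagens held 5.74 ChIP-specific peaks (2.11 to 12.5) and 0.956 IgG peaks (0.0242 to 5.33), from 6 peaks and 1 peak. Peaks that lie close together are not independent, so these intervals may be too narrow. Of the 62 ChIP-specific peaks inside these gene bodies, 21 were assigned to a gene outside the 3 families, and 5 genes without an assigned peak had a ChIP-specific peak in the body: Col5a2, Col15a1, Col18a1, Col26a1 and Itgae. The peak in Col5a2 (chromosome 1, 45472501 to 45472874, assigned to RP24-370G18.1) was 375 bp long with an FDR printed as 0. It was longer than the Itga9 peak with that FDR.

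**Figure D4:**
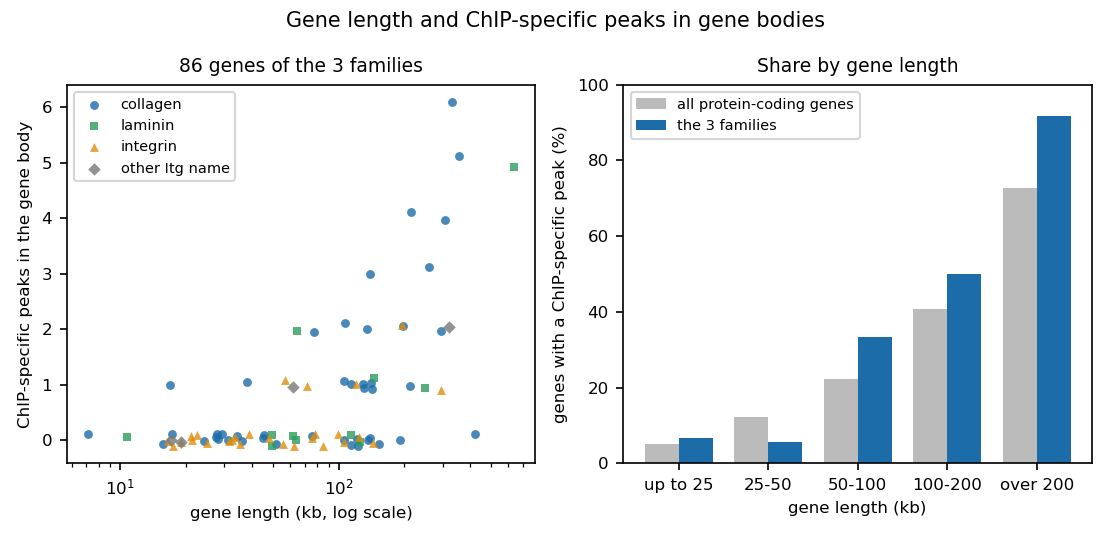
Left, number of ChIP-specific peaks in the gene body (y axis, spread slightly for visibility) against gene length in kb (x axis, log scale) for the 86 genes, marked by family. Right, percentage of genes with such a peak by length class, for all protein-coding genes (grey) and the 3 families (blue, 15, 18, 15, 26 and 12 genes). The share rises with length in grey from 5.12% to 72.7%, and the families reach 91.7% over 200 kb (11 of 12 genes). No interval was made for these shares.

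Genes that act with these families were listed by function. Of 58 such genes, 11 had an assigned ChIP-specific peak (19.0%) and 14 an IgG peak (24.1%), beside the 17.5% and 17% of protein-coding genes. Of 13 other matrix proteins, 3 had ChIP-specific peaks: Tnc, the ligand of the Itga9 receptor, and Nid1 and Nid2, which link laminin to type IV collagen. IgG peaks were assigned to 2 of the 13, Tnc and Tnr, and a ChIP peak overlapped that of Tnr. Of 22 adaptors and kinases that act inside the cell at integrins, 6 had ChIP-specific peaks and 7 IgG peaks. Parva, an adaptor of the complex with Ilk, had 6 intronic ChIP-specific peaks, the strongest at 112517776 to 112518099 on chromosome 7 (FDR 0.00297), and 1 IgG peak. Ilk itself and Ptk2, the focal adhesion kinase, had promoter peaks in both lists that overlapped. Fermt2, an integrin activator, had a ChIP-specific promoter peak at -132 bp from a TSS (chromosome 14, 45530201 to 45530299, FDR 0.0330). Of 14 collagen-modifying enzymes, Adamts2, which trims procollagen, had a ChIP-specific peak of the promoter class (chromosome 11, 50794676 to 50794849, FDR 0.0120). That peak was at -655 bp from the TSS of a transcript that starts far downstream of another Adamts2 TSS. An intergenic ChIP peak over IgG, at 50595351 to 50595524, lay at -6647 bp from that other TSS. Adamts2 also had 3 IgG peaks, of which 2 overlapped ChIP peaks. IgG peaks were assigned to 3 of the 14 enzymes, Lox, Loxl4 and Adamts2, and a ChIP peak overlapped that of Loxl4. Of 4 ligands of leukocyte integrins, Vcam1 had a ChIP-specific peak, and of 5 other matrix receptors none did. Ddr2 and Cd44 of these receptors had IgG peaks, each overlapped by a ChIP peak, with an FDR printed as 0 in both lists.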

How the data were processed

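Nr1d1 ChIP-seq was measured in Th1 cells, with 3 ChIP libraries, 1 IgG mock and 1 input, grouped by sample titles because the antibody label is the same for all 5. The submitters' processing notes name the build mm10 and the tools BWA and HOMER, without versions or roles. The peak caller, and how the 3 libraries were joined, is not given in the sources used here. Per peak, the authors deposited an FDR (a q-value, printed to 6 decimals, at most 0.05) and a length in multiples of 25 bp. Their HOMER tables give, per the file headers, the nearest gene, its distance, a class and a score, and that score is the peak length.

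Overlaps (at least 1 bp), gene bodies and promoter motifs were computed with pandas 2.3.3, scipy 1.17.1 and numpy 2.4.6 under Python 3.11.15, and the overlap code was tested on simulated intervals. Coordinates are those of the HOMER tables. Gene bounds came from the RefSeq table of GRCm38.p6, matched by symbol, and 5815 of the 12195 gene names of the peaks were matched to protein-coding genes. Peaks without annotation (2 ChIP, 1 IgG) entered no class. Named genes were those with a ChIP-specific peak at a promoter, an exon or within 1 kb of a TSS, the 10 with the most and those with the 10 strongest ChIP-specific peaks, 12 leukocyte integrins, those with the 5 strongest IgG peaks and those with shared promoter or exon peaks. Others are named to complete a group or locus, and some of these were chosen after their values were seen. Members and lists were chosen with earlier results of these data known. Alternatives changed the FDR, the overlap, the distance, the gene assignment and the member names.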

Additional observations from a re-analysis of the deposited data

How the results depend on the processing

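Lists were deposited per antibody, so no library could be left out, and no paired analysis was possible because the columns carry no replicate. Of 21 alternatives over 6 results, 18 stayed within 1.5 times the count or within the interval of the share. The 3 that moved came from an FDR under 0.01, which removes peaks by construction. The genes with a ChIP-specific peak fell from 30 to 17 and those with an IgG peak from 24 to 11. The ChIP-specific peaks of these genes fell from 54 to 22. An FDR under 0.01 was met by 40.7% of these genes' ChIP-specific peaks, beside 29.1% of all ChIP-specific peaks. For their IgG peaks it was 39.1%, beside 53.5% of all IgG peaks. Assigning peaks by gene body with 5 kb on either side gave 34 genes with a ChIP-specific and 23 with an IgG peak. With overlap counted from 50% of the ChIP peak, 17.6% of the ChIP peaks overlapped an IgG peak. With IgG peaks within 1 kb counted it was 23.5%, beside 28.3% of all ChIP peaks. Motif searches within peaks, with a window of 200 bp as the alternative, were planned and not run. Without read counts, weak peaks cannot be weighed by depth.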
